A study of Homo sapiens with 54 samples.

Results

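The comparison described here rests on 6 ATAC-seq peak lists, 3 from MDA-MB-231 cells taken 1 day after cisplatin was removed and 3 from cells taken 10 days after removal. They were chosen by the cell line, time and replicate number in their names, and they are 6 of the 18 deposited lists, made from 18 of the 54 sequenced samples. Both groups are survivors of the same drug, so the comparison asks what changed in open chromatin in the drug-free days between them and not what the drug did. Neither dose nor length of the cisplatin exposure is given in the sources used here. Untreated MDA-MB-231 cells (3 lists) and the same 2 times in the prostate cancer line PC3 (6 lists) serve as references.

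MDA-MB-231 is a triple-negative breast cancer line with a mesenchymal-like shape and strong migration. Cisplatin is a platinum drug that links bases within and between the DNA strands, stalls replication and starts the DNA damage response. Cells that outlive it can stop dividing, become large and polyploid, and secrete inflammatory factors and proteases, a state often described as therapy-induced senescence, from which some cells later resume growth. The series title places these cells among polyploid survivors with changed nuclear organization. ATAC-seq marks open chromatin with a transposase that cuts and tags DNA that is not wrapped in nucleosomes, and a peak is a stretch where the tags pile up. Open sites near a gene mark its promoter and enhancers and are not a measure of its RNA.

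Each list stands for 1 biological replicate, which was divided into 3 experimental replicates before tagmentation, which gives 3 lists at each time. Read counts were not analysed here, so sequencing depth is unknown, and p-values reflect only how far these lists spread. In such bulk samples, fewer cells with an open site and a weaker opening in every cell cannot be told apart. Only cells that survived were sampled at either time.

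The labels were checked against line markers, as the unscaled length of peaks from 10 kb before a gene to 10 kb past it. CDKN2A, which is deleted in MDA-MB-231, had no peak in any of its 9 lists and from 1.40 to 3.21 kb in the PC3 lists. VIM, the mesenchymal filament vimentin, held 4.51 to 6.22 kb in MDA-MB-231 and 2.65 to 3.24 kb in PC3, and AXL, a receptor kinase of mesenchymal-like cells, held 13.6 to 23.9 kb and 6.33 to 9.09 kb. The epithelial regulators GRHL2 and ESRP1 lay the other way, with 3.84 to 6.48 kb and 2.26 to 3.33 kb in MDA-MB-231 against 14.4 to 18.3 kb and 6.08 to 7.13 kb in PC3. ESR1, the oestrogen receptor, which triple-negative cells lack, still held 3.98 to 8.14 kb of peaks in MDA-MB-231. The ranges of the lines overlapped for the other markers looked at, CD44, CAV1, ZEB1, MSN, PGR, CDH1 and EPCAM. ZEB1 held 3.66 to 5.88 kb in MDA-MB-231 and 2.86 to 4.36 kb in PC3, and CDH1 5.59 to 8.39 kb and 6.68 to 10.4 kb.

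Peak numbers overlapped between the times, while the shares of peaks inside and between genes did not. Day 1 lists held 133526, 100564 and 120254 peaks and day 10 lists 121154, 103830 and 126462 (exact permutation p = 1). The share lying inside gene bodies was 44.9%, 44.1% and 44.7% at day 1 and 43.2%, 42.9% and 43.4% at day 10. The share between genes was 42.5%, 42.0% and 42.8% at day 1 and 43.8%, 43.8% and 45.2% at day 10. Neither pair of groups overlapped.

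The gene-body share thus went from 44.6% ± 0.408 (SD, n = 3) to 43.2% ± 0.286, and the share between genes from 42.4% ± 0.386 to 44.3% ± 0.794, each with an exact two-sided permutation p = 0.1, the smallest that 3 lists against 3 can give. With the 50000 peaks of highest area in each list the share between genes was 36.9% and 38.4% and the groups overlapped (exact permutation p = 0.2). Control lists lay on the far side of day 1, with means of 45.5% in gene bodies and 39.5% between genes. The share within 1 kb of a gene end did not separate the times, at 13.0% ± 0.749 and 12.6% ± 1.02 (exact permutation p = 0.6). Total covered length was 70.7 ± 4.02 Mb at day 1 and 63.0 ± 6.98 Mb at day 10 (exact permutation p = 0.3), and median peak width was 444 ± 87.0 bp and 385 ± 46.5 bp (exact permutation p = 0.4). The part of list length and width in the results per gene was not tested beyond the alternatives given with them.

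**Figure D1:**
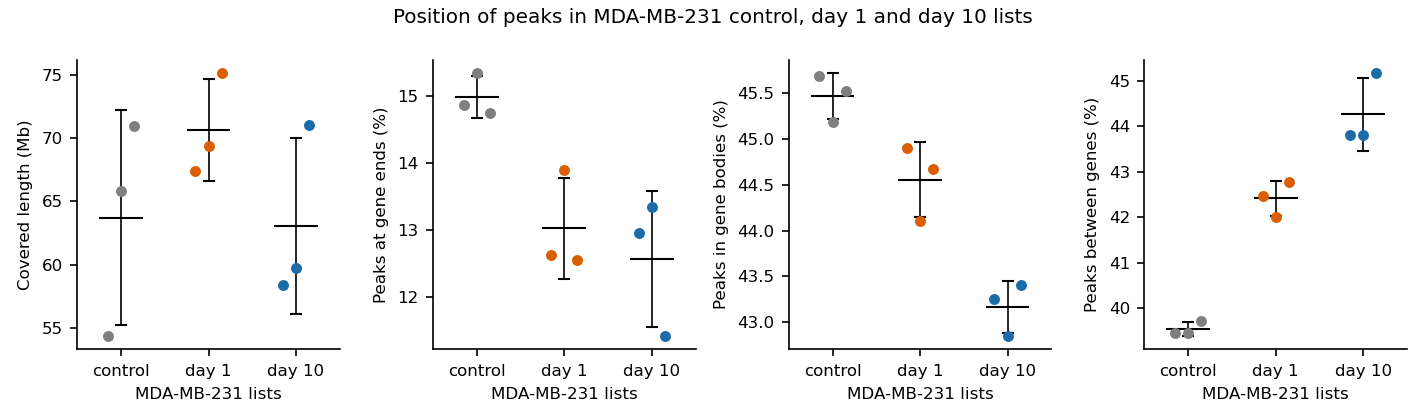
Covered length in Mb and the percentage of peaks at gene ends, in gene bodies and between genes (vertical axes, which do not start at 0) for the 3 control, 3 day 1 and 3 day 10 lists of MDA-MB-231. Points are lists, horizontal lines are group means and bars are 1 SD, and the day 10 points of the share between genes lie from 43.8% to 45.2% and the day 1 points from 42.0% to 42.8%.

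Individual sites turned over in both directions. Peaks of the 9 MDA-MB-231 lists merged into 152338 regions. Of these, 3517 (2.31%) had a peak in all 3 day 10 lists and in no day 1 list and are called gained, and 3799 (2.49%) showed the reverse and are called lost. Gained regions were mostly small sites between genes. Their median width was 307 bp against 458 bp over all regions, 60.3% lay between genes against 44.4%, 2.16% lay at a gene end against 11.7%, and 17.6% lay in gene-poor windows (1 Mb of sequence holding no more than 1 coding gene) against 9.77%. All regions include 79796 with a peak in all 6 survivor lists, which by rule cannot be gained or lost. Those had a median width of 712 bp, with 41.7% between genes, 17.3% at a gene end and 7.36% in gene-poor windows. Width is that of the peaks of up to 9 lists merged. The contrast with all regions thus partly follows from the rule.

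Lost regions lay closer to genes. Their median width was 469 bp, 53.6% lay in gene bodies, 36.5% between genes and 9.92% at gene ends. Control lists held a peak in none of the 3 for 3358 of the gained regions (95.5%) and for 2561 of the lost regions (67.4%), against 35.9% of all regions. The share was 8.24% for regions with a peak in all 6 survivor lists, which the rule leaves out of both groups. All 3 control lists had a peak at 54 gained and at 413 lost regions. Most gained and lost regions thus had no peak in any control list. The 413 lost regions were open in untreated and day 1 cells and had no peak at day 10. Control lists held fewer peaks, with a mean of 89564 against 118115 at day 1 and 117149 at day 10. Gained and lost regions also ranked low, at a median of the 24.6 and 26.8 percentile of area within their lists. How far this lowers their presence in control lists was not tested. With the 50000 peaks of highest area in each list, 1672 regions were gained and 1644 lost. Leaving out a list loosens the rule: 6074 regions were gained without day 1 replicate 1 and 6691 without day 10 replicate 2, and 8000 were lost without day 1 replicate 2 and 5888 without day 10 replicate 3.

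**Figure D2:**
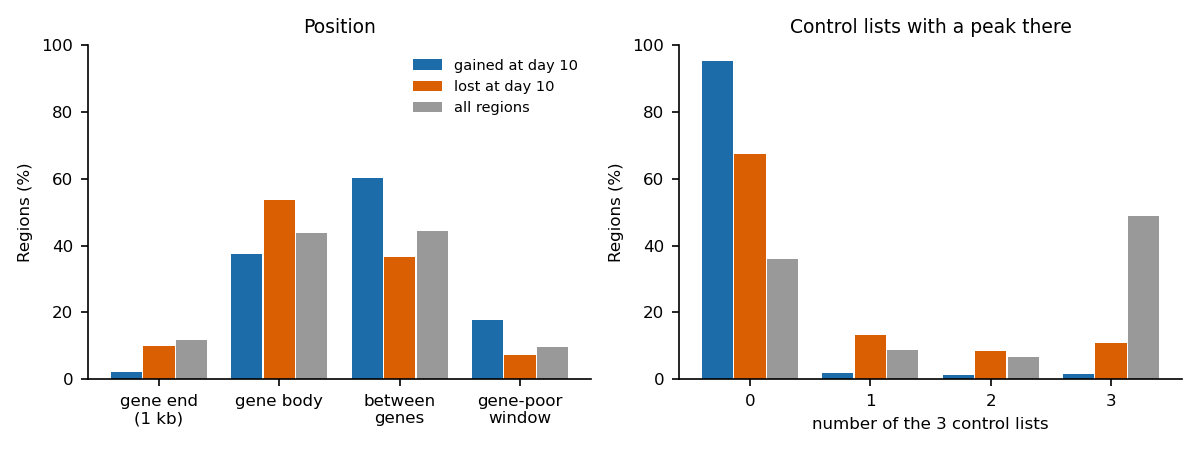
Percentage of regions (vertical axes, from 0) by position (left) and by the number of control lists with a peak there (right) for gained, lost and all MDA-MB-231 regions. Gained regions lie between genes in 60.3% of cases and in no control list in 95.5%, and lost regions in 36.5% and 67.4%.

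The widest gained regions included sites with a peak in untreated cells and sites without one. Width is that of the merged region, control peaks included, which favours regions with control peaks. Over all gained regions, 1.54% had a peak in all 3 control lists. The widest, in HMCN2 (chr9:130344775-130347619), had 1115, 1119 and 1239 bp under peaks at day 10, none at day 1 and 1520, 1214 and 2576 bp in controls. A region in ZBTB46, a zinc finger gene (chr20:63815143-63816895), likewise had a peak in all 3 control lists, and one in CDH23, a cadherin gene (chr10:71807114-71808533), in none. The region 0.008 kb from CSF2, which encodes the cytokine GM-CSF (chr5:132076179-132077538), had 1193, 1234 and 999 bp at day 10 and no peak in any day 1 or control list. A site within FFAR2, a short-chain fatty acid receptor gene (chr19:35449153-35449931), had 779, 674 and 653 bp at day 10 and none elsewhere in the line.

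The widest lost region lay within KRT80, a type II keratin gene (chr12:52172967-52176584). It held 2972, 3330 and 3589 bp at day 1, none at day 10 and 1208, 875 and 1386 bp in controls. Several wide lost regions had no peak in any control list and were seen at day 1 alone. They lay at the ends of ARHGEF4 (chr2:131043421-131046863), of SLC39A5 and ANKRD52 (chr12:56234685-56237986) and of NUP62, a nuclear pore gene (chr19:49905941-49908783). The region 0.209 kb from SLC7A5, a large neutral amino acid transporter (chr16:87827152-87829813), held 2176, 2328 and 2661 bp at day 1 and no peak at day 10 or in controls.

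Few promoters turned over, and those lost outnumbered those gained. Of 15812 RefSeq promoters of 300 bp (250 bases before to 50 after the start, GRCh38.p14), 12 (0.0759%) had a peak in every day 10 list and no day 1 list, and 50 (0.316%) the reverse. The gained promoters belong to TSPAN1, RPTN, LCE3E, S100A12, OR6A2, SCGB1D2, HAL, SLC7A8, LRRC74A, NOX5, PLIN4 and FRMPD1, all named after their values were seen. Of the 12, 11 had no peak in any control list, the exception being PLIN4 with a peak in all 3. Without day 1 replicate 1 or day 10 replicate 2, 33 and 22 promoters were gained, and without day 1 replicate 2 or day 10 replicate 3, 83 and 76 were lost. RPTN, LCE3E and S100A12 all lie in the epidermal differentiation complex of chromosome 1, which encodes proteins of the cornified envelope and S100 calcium-binding proteins.

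Gained promoters were poor in CpG dinucleotides, which are dense in promoters of widely used genes. They held a median of 1.5 CpG per 300 bp, lost promoters 8, all promoters 22 and the 9476 promoters open in all 6 survivor lists 27. By rule a gained promoter had no peak at day 1. The 5591 promoters with no peak in any survivor list held a median of 7. The 7-base motif TGANTCA was searched on both strands as a loose form of the AP-1 site, which FOS and JUN dimers bind. The AP-1 consensus has C or G at the middle base, where this motif allows any base. The loose motif occurred in 4 of the 12 gained promoters (33.3%), in 3 of the 50 lost (6.00%) and in 910 of all 15812 (5.76%). TGANTCA was 1 of 11 motifs searched in this way. The motif GGAATG of TEAD factors occurred in 2 of the 12 (16.7%) against 11.7% of all promoters, the motif AGATAA of GATA factors in 2 (16.7%) against 7.55%, and the forkhead motif TGTTTAC in 1 (8.33%) against 2.62%. None of the 12 held the CRE (TGACGTCA), RUNX (TGTGGTT), ETS (CCGGAAG), E-box (CACGTG), antioxidant (TGACNNNGC), hypoxia (GACGTG) or NF-kB (GGGANTTCC) motif, which occurred in 2.16% to 14.3% of all promoters. Among the 5591 promoters with no peak in any survivor list, TGANTCA occurred in 7.10%, TEAD in 13.8%, GATA in 12.8% and forkhead in 3.45%. The motifs that none of the 12 held occurred in 1.61% to 12.3% of them. A match of this kind describes the letters only. In the 4 gained promoters, only the match TGAGTCA of LRRC74A has C or G at the middle base. The 4 gained promoters with the motif are shown because they carry the few start sites that opened between the times, with the motif in capitals. They are RPTN (chr1:152159179-152159478, minus strand), which encodes the keratinocyte protein repetin, S100A12 (chr1:153375572-153375871, minus strand), LRRC74A (chr14:76826158-76826457, plus strand), which has 2 matches, and SLC7A8 (chr14:23155271-23155570, minus strand), an amino acid transporter.
RPTN: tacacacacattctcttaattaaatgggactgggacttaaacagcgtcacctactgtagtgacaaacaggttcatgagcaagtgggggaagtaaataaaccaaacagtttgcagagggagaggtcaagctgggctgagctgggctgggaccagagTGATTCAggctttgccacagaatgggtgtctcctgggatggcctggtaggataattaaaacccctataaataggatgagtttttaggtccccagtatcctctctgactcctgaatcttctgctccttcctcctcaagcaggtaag
S100A12: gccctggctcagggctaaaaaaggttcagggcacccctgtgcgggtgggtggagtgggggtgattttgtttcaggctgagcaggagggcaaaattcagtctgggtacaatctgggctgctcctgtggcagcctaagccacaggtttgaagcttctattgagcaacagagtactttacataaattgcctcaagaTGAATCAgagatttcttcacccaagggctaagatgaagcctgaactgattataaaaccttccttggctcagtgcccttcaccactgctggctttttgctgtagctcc
LRRC74A: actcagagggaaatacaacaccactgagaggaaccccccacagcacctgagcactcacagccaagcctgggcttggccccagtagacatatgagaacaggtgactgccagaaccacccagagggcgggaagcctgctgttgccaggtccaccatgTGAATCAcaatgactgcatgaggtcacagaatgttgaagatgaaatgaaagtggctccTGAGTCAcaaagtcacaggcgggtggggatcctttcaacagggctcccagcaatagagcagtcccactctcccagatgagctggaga
SLC7A8: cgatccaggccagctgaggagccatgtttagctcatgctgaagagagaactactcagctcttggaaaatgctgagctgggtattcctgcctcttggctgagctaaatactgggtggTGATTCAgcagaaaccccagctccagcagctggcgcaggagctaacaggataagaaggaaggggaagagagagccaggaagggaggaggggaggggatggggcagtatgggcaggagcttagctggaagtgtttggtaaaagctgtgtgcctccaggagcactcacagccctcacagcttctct

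At the S100A12 promoter the peaks covered 242, 238 and 242 of the 300 bases at day 10 and none at day 1 or in control lists. The peaks ranked between the 50.7 and 56.1 percentile of area within their lists. The SLC7A8 promoter was covered over 266, 299 and 300 bases and RPTN over 191, 238 and 239, at lower ranks, from the 7.67 to the 34.3 and from the 3.59 to the 38.7 percentile. LRRC74A was covered over 257, 257 and 266 bases. In PC3 the S100A12 promoter carried a peak in all 3 lists of both times, and RPTN in 1 day 1 list and all 3 day 10 lists.

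Among the 50 lost promoters, 12 had a peak in all 3 control lists: TSPAN2, KISS1, MGMT, GNG13, IGBP1C, CNN1, SLC7A10, APOE, CAND2, AQP1, CUL1 and MAMLD1. Another 20 had no peak in any control list, among them F7, KRT4, CNTF and APCS. A peak over any part of a promoter counted, so a small shift of a peak edge can count as a loss. At IGBP1C peaks covered only 9 to 21 bases in control lists and 19 to 21 at day 1. Its nearest day 10 peak lay 0.007 to 0.177 kb away. That gap was 0.052 to 0.058 kb at MAMLD1 and 0.089 to 0.143 kb at CUL1. For the rest of the 12 it ran from 0.402 kb at SLC7A10 to 49.6 kb at MGMT. MGMT, KISS1 and APOE are shown because they were open in untreated and day 1 cells and had no peak at day 10, with CpG in capitals. MGMT (chr10:129466991-129467290, plus strand) encodes the enzyme that removes alkyl groups from guanine and is known for promoter methylation in cancer. KISS1 (chr1:204196442-204196741, minus strand) encodes kisspeptin, first described as a metastasis suppressor, and APOE (chr19:44905546-44905845, plus strand) encodes apolipoprotein E.
MGMT: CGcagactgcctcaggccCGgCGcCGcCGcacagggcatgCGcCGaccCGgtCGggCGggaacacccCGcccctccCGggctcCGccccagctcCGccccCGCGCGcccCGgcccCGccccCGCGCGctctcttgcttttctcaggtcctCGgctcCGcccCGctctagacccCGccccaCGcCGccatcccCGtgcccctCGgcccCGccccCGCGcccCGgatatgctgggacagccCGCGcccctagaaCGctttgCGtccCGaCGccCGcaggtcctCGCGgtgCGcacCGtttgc
KISS1: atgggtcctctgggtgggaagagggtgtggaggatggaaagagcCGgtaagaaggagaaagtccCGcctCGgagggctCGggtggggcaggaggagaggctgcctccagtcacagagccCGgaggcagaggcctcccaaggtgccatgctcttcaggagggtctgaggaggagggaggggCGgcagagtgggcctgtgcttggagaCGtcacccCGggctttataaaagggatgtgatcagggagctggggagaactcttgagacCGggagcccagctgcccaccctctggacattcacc
APOE: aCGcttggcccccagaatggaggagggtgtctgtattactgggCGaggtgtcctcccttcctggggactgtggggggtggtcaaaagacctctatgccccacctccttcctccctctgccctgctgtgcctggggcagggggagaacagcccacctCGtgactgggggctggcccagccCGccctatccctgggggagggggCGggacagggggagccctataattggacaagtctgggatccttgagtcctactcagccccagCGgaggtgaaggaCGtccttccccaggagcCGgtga

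The MGMT promoter held 45 CpG. Peaks covered 300, 291 and 300 of its 300 bases in control lists, all 300 in each day 1 list and none in any day 10 list, where the nearest peak lay 49.5 to 49.6 kb away. Its day 1 peaks were modest, from the 6.15 to the 53.0 percentile of area. KISS1 peaks at day 1 were larger, from the 85.8 to the 91.6 percentile, and day 10 lists had a peak 0.423 to 0.468 kb away. At APOE the nearest day 10 peak lay 0.608 to 0.622 kb away. PC3 had a peak at the MGMT promoter in 2 day 1 and 3 day 10 lists and none at KISS1 in either group.

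The covered length around most genes showed no call, and more genes fell than rose. Covered length is the sum of bases under peaks in a gene and its flanks of 10 kb, after scaling each list to the same total. It was tested for 16816 genes with limma on log2(length + 500 bp), with Benjamini-Hochberg adjustment over all genes. At day 10, 359 genes (2.13%) were higher and 545 (3.24%) lower at an adjusted p under 0.05, and 3184 passed an unadjusted 0.05. Counts of list members at an unadjusted p are to be read beside these 3184 of 16816 genes, which include both directions. Groups did not overlap for 348 of the higher and 540 of the lower genes, set against 12.0% of all genes whose day 10 values all lay above and 13.9% whose values all lay below those of day 1.

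Genes called higher had a lower median length than all genes tested in controls, at day 1 and at day 10. Genes called lower had a higher one in each. Calls rest on day 10 minus day 1, a choice that favours low day 1 values among higher genes and high ones among lower genes. Median lengths of the higher genes were 1.04 kb in controls, 1.26 kb at day 1 and 2.22 kb at day 10, and 87 of them (24.2%) had no peak in any control list, against 3.63% of all genes tested. Median lengths of the lower genes were 4.49, 5.47 and 3.48 kb, and those of all genes tested 3.40, 3.21 and 3.18 kb. The control mean lay below the midpoint of day 1 and day 10 for 287 of the higher genes (79.9%) and 238 of the lower (43.7%), against 33.5% of all genes. That midpoint is built from the values that chose the genes, so no conclusion is drawn from these shares. These lengths are not per gene length, and the median gene measured 41.8 kb among the higher, 22.6 kb among the lower and 29.1 kb among all genes tested. The median log2 change was 0.60 among higher and -0.54 among lower genes.

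Scaling moves the balance of the calls. Without scaling, the median gene fell by 0.13 on the log2 scale and 155 genes were higher and 822 lower, of which 155 and 527 were among the calls above. Median-of-ratios scaling gave 366 and 506. Leaving out day 1 replicate 2 left 185 and 310 calls, day 1 replicate 3 left 187 and 223, and day 10 replicates 1, 2 and 3 left 203 and 352, 264 and 329, and 240 and 361. Of the original calls, 131 higher and 175 lower passed with each list left out in turn, and 67 and 109 passed with equal numbers of peaks per list.

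**Figure D3:**
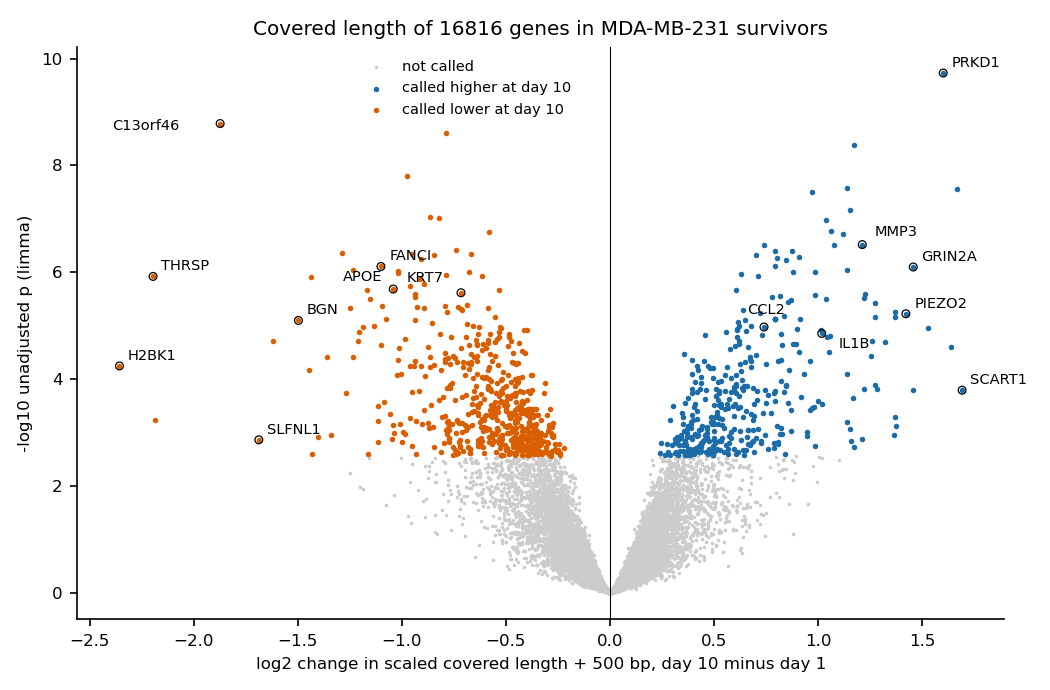
Log2 change in scaled covered length plus 500 bp, day 10 minus day 1 (horizontal axis), against -log10 of the unadjusted limma p (vertical axis), 1 point per gene. The 359 genes called higher are blue, the 545 called lower are orange and the rest are grey, and the largest rise, of SCART1, is 1.69.

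Several of the largest rises were in genes with little or no open chromatin in untreated cells. PIEZO2, a mechanically gated ion channel (chr18:10670247-11149569), had no peak in controls, 0.803, 0.266 and 0.911 kb at day 1 and 3.77, 2.02 and 2.02 kb at day 10 (log2 change 1.42, SE 0.221, adjusted p = 0.00124). All 3 of its day 10 lists lay above all day 1 lists. PRKD1, a diacylglycerol-regulated kinase (chr14:29576479-29927847), had no peak in any control or day 1 list and 0.901, 0.990 and 1.17 kb at day 10 (adjusted p = 3.14e-06). Groups with no peak add no spread to the fit, which lowers the p-value, and the size of such a change depends on the pseudocount. The same holds for MMP12, LCE1F, S100A12, THRSP, H2BK1 and C13orf46 below.

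GRIN2A, a subunit of the NMDA glutamate receptor (chr16:9753404-10182908), also had no peak in controls. It went from 1.09, 0.342 and 0.75 kb to 3.17, 2.29 and 2.88 kb (log2 change 1.46, SE 0.194, adjusted p = 0.000405), with 3 regions gained and none lost. FLT1, a receptor for vascular endothelial growth factor (chr13:28300346-28495128), went from 1.10, 0.813 and 0.810 kb to 2.62, 2.18 and 2.21 kb (log2 change 1.01, SE 0.167, adjusted p = 0.00181). SLC28A3, a nucleoside transporter (log2 change 1.53), GSTA2, a glutathione transferase (1.37), and ADAMTS2, which trims procollagen (1.37), passed as well, and SCART1 had the largest log2 change at 1.69.

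Calls on PIEZO2 and FFAR2 (log2 change 0.91) passed under every alternative tried, and FLT1 under every alternative in which it was tested. PRKD1 lost its call with the 50000 peaks of highest area, GRIN2A, GSTA2 and SLC28A3 with the upper 50% of peaks, SCART1 without day 1 replicate 2 (adjusted p = 0.0534), and ADAMTS2 without day 1 replicate 2 (adjusted p = 0.0934), day 1 replicate 3 (0.110) or day 10 replicate 1 (0.0720).

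Because NCR2 (log2 change 1.38), a natural killer receptor, is a gene of blood cells, the list of haematopoietic genes was set beside it. Of its 17 tested members, 1 was higher (ITGAX, an integrin of myeloid cells), none lower and 4 above the unadjusted threshold, the median log2 change was 0.12, and the summed length ran from 73.4 to 78.4 kb at day 1, 75.7 to 78.2 kb at day 10 and 75.1 to 79.5 kb in controls. None of its members was at 0 in all 6 lists. NCR2 lost its call without day 1 replicate 2 (adjusted p = 0.0865), day 10 replicate 1 (0.0933) or day 10 replicate 2 (0.0954), and ITGAX without any list but day 1 replicate 1 or day 10 replicate 2 (0.0521 to 0.139). In the list of neuronal and neuroendocrine genes, 2 of 22 were higher, GRIN2A and GRIK2, a kainate receptor subunit, and none lower, beside 2.13% and 3.24% of all genes, with a summed length of 114 to 130 kb at day 1, 127 to 136 kb at day 10 and 85.1 to 97.6 kb in controls. GRIK2 had no call without scaling (adjusted p = 0.277), which left GRIN2A alone, and its log2 change was -0.089 with the 50000 peaks of highest area and -0.072 with the upper 50% of peaks. In the endothelial list, 2 of 14 were higher, FLT1 and ERG, a transcription factor, and ESAM, a junction molecule, was lower (log2 change -0.41), with 72.5 to 74.2 kb at day 1, 72.3 to 80.3 kb at day 10 and 82.4 to 85.0 kb in controls. The groups overlapped for ERG, with 1.52, 0.233 and 0.798 kb at day 1 and 4.43, 1.26 and 3.30 kb at day 10, and its call was lost without day 1 replicate 2 or 3 or day 10 replicate 1 or 3 (adjusted p from 0.0854 to 0.147). ESAM lost its call without day 1 replicate 2 or 3 or day 10 replicate 3 (0.0838 to 0.112), and GRIK2 without any list but day 10 replicate 1 (0.0578 to 0.146). The part of other cell types in these calls was not tested.

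The largest falls concerned genes where peaks present at day 1 were gone at day 10. THRSP, a regulator of lipid synthesis (chr11:78063861-78068351), held 1.44, 2.10 and 1.88 kb at day 1 and none in any control or day 10 list (adjusted p = 0.000446). H2BK1, a histone H2B gene (chr7:151207837-151210488), held 0.811, 4.57 and 2.03 kb at day 1 (adjusted p = 0.00437), and C13orf46 (chr13:113926514-113974076) 1.25, 0.872 and 2.06 kb (adjusted p = 1.39e-05), again with none at day 10 or in controls. These 3 genes thus had open sites at day 1 alone among the 9 lists.

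Other genes that fell also had peaks in untreated cells. BGN, the matrix proteoglycan biglycan (chrX:153494980-153509546), held 2.1, 1.5 and 2.13 kb in controls, 4.19, 3.36 and 4.25 kb at day 1 and 0.852, 1.10 and 1.26 kb at day 10 (log2 change -1.5, SE 0.238, adjusted p = 0.00142). RASA4B, a RAS GTPase-activating protein (chr7:102479976-102517777), held 2.32, 1.99 and 2.10 kb at day 1 and 0.470, 0.185 and 1.13 kb at day 10 (log2 change -1.36, adjusted p = 0.00352). It has near-identical copies, so its peaks depend on how reads between copies were placed. THRSP lost its call with the upper 50% of peaks (adjusted p = 0.129), BGN with equal numbers of peaks per list, and RASA4B with 2 kb in place of 10 kb on each side.

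Among the genes of secreted inflammatory factors, the proteases MMP1 and MMP3 and the cytokines IL1B and CCL2 gained open chromatin. Of 24 tested members of the list, these 4 were higher and none lower, beside 2.13% and 3.24% of all genes, with a median log2 change of 0.09 against 0.0037 over all genes, and -0.04 against -0.13 without scaling. MMP3, stromelysin (chr11:102835801-102843609), held 0.342, 0 and 0.218 kb in controls, 0.300, 0.416 and 0.239 kb at day 1 and 1.58, 1.21 and 1.40 kb at day 10 (log2 change 1.21, SE 0.15, adjusted p = 0.000286). MMP1, interstitial collagenase (chr11:102789919-102798160), went from 0.890, 0.590 and 0.836 kb to 1.83, 1.85 and 1.64 kb (log2 change 0.84, SE 0.172, adjusted p = 0.00778). Every day 10 list lay above every day 1 list for both proteases. MMP3 lost its call with the upper 50% of peaks (adjusted p = 0.122) and MMP1 with a pseudocount of 100 bp (0.0658).

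IL1B, interleukin 1 beta (chr2:112829751-112836779), went from 0.782, 0.688 and 0.657 kb to 2.02, 1.45 and 2.48 kb (log2 change 1.02, SE 0.170, adjusted p = 0.00197), against 0.323 to 0.511 kb in controls. CCL2, the monocyte chemoattractant (chr17:34255285-34257203), had no peak in controls, 0.276, 0.498 and 0.261 kb at day 1 and 0.879, 1.03 and 0.801 kb at day 10 (log2 change 0.74, SE 0.12, adjusted p = 0.00172). Both lost their call with 2 kb on each side, where the log2 change of IL1B was -0.057 (adjusted p = 0.844) and the adjusted p of CCL2 was 0.906. The added covered length of IL1B thus lay more than 2 kb away, and no region in its window met the rule for gained.

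Other members had no call. IL6 had a log2 change of 0.08, CXCL8 0.07, CXCL2 0.41 (adjusted p = 0.0783) and CSF2 0.45 (adjusted p = 0.140). The count of members called higher stayed between 3 and 5 under every alternative tried, with none lower. The list was chosen with results of these lists in view, so its count is no independent evidence of a direction.

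The MMP genes lie side by side, and the change ran across the cluster. Gene clusters were picked after values had been seen and are given as descriptions. Every one of the 9 tested genes of the metalloproteinase cluster on chromosome 11 (chr11:102510508-102965732, 455 kb) had a positive log2 change, with a median of 0.58, and 4 were called: MMP1, MMP3, MMP12 and MMP27. The cluster contained 8 gained regions and no lost region, and none of the 8 had a peak in a control list. Its covered length was 11.4, 11.6 and 11.8 kb at day 1 and 18.3, 16.7 and 17.0 kb at day 10, with a control mean of 9.57 kb. MMP12, macrophage elastase, had no peak in any control or day 1 list and 0.623, 0.606 and 0.534 kb at day 10, and lost its call with the upper 50% of peaks (adjusted p = 0.271). Of all genes tested, 2.13% were called higher. Neighbouring genes share peaks within 10 kb, so the 4 calls are not separate observations.

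The interleukin-1 receptor and ligand clusters on chromosome 2 and the CC chemokine genes of chromosome 17 also held more covered length at day 10. Across the interleukin-1 receptor cluster the covered length was 15.9, 14.4 and 14.4 kb at day 1 and 19.0, 17.9 and 17.4 kb at day 10, with IL1RL1, the receptor for interleukin 33, called higher (log2 change 0.65, SE 0.103, adjusted p = 0.00140). Across the interleukin-1 ligand cluster it was 15.7, 18.2 and 16.4 kb and then 20.0, 19.3 and 20.4 kb, with IL1B and IL36B called. IL1RL1 and IL36B lost their calls with the upper 50% of peaks (adjusted p = 0.113 and 0.660). The CC chemokine genes held 44.5 ± 0.629 kb at day 1 and 47.2 ± 0.784 kb at day 10, with 4 regions gained and 2 lost. At the CXC chemokine genes of chromosome 4, values of 67.8 ± 4.13 and 74.7 ± 3.87 kb overlapped and limma called none of 12 genes, with 2 higher at an unadjusted p under 0.05.

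**Figure D4:**
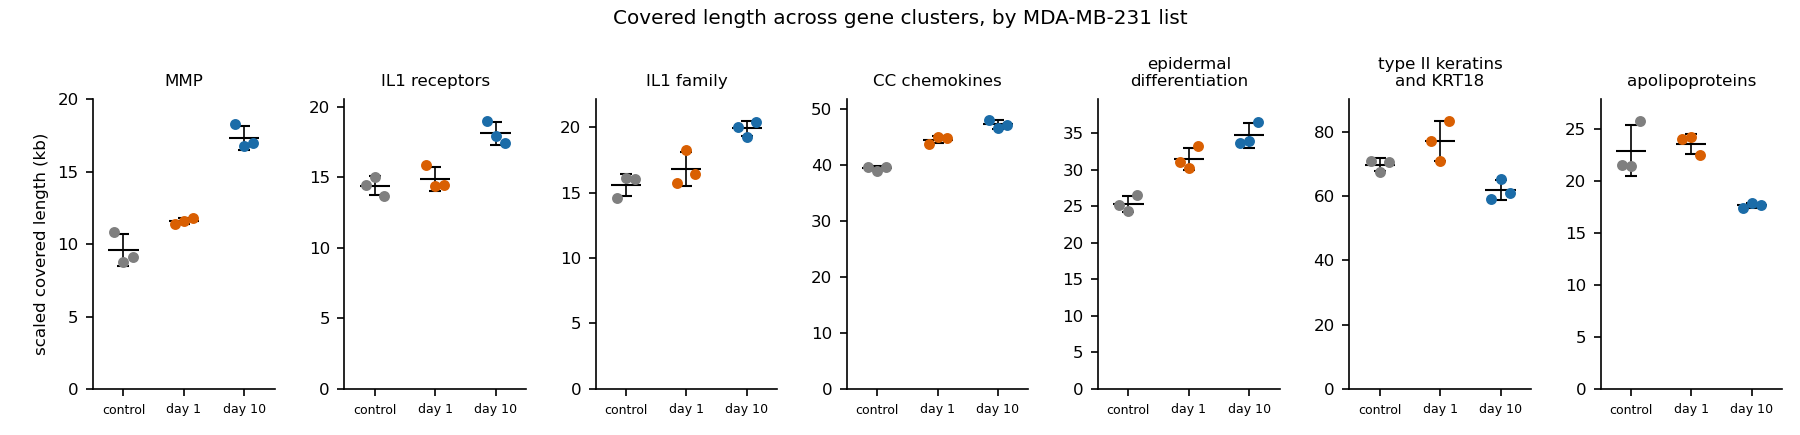
Scaled covered length in kb (vertical axes, from 0) across 7 gene clusters in the 3 control, 3 day 1 and 3 day 10 lists of MDA-MB-231. Points are lists, horizontal lines are means and bars are 1 SD, and the metalloproteinase cluster goes from 11.6 kb at day 1 to 17.3 kb at day 10 while the keratin cluster goes from 77.1 to 61.8 kb.

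Several epithelial genes lost open chromatin between day 1 and day 10. Of 23 tested members of the epithelial list, 6 were lower and none higher, beside 3.24% and 2.13% of all genes: the keratins KRT7, KRT8 and KRT18, the transcriptional repressor OVOL2, the protease inhibitor SPINT1 and the adhesion molecule CDH1 (E-cadherin). The genes KRT8 and KRT18 overlap, so they share peaks and their calls are not separate observations. The list's median log2 change was -0.09, and its summed length ran from 132.8 to 133.7 kb at day 1, 113.5 to 122.3 kb at day 10 and 138.1 to 138.9 kb in controls. KRT7 (chr12:52233243-52255853) held 16.1, 15.9 and 15.6 kb in controls, 18.0, 14.1 and 20.2 kb at day 1 and 10.0, 11.4 and 9.57 kb at day 10 (log2 change -0.72, SE 0.103, adjusted p = 0.000750).

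OVOL2, which represses mesenchymal genes (chr20:18024152-18059188), went from 3.55, 2.67 and 2.77 kb to 2.15, 2.01 and 1.77 kb (log2 change -0.49, SE 0.0956, adjusted p = 0.00578). KRT18, the partner of KRT8 in simple epithelia (chr12:52948855-52952906), went from 4.73, 5.13 and 4.88 kb to 3.30, 3.33 and 3.37 kb (log2 change -0.50, SE 0.113, adjusted p = 0.0154). CDH1 had a smaller change of -0.24 (SE 0.0673, adjusted p = 0.0462), from 8.48, 7.96 and 7.81 kb to 6.70, 6.95 and 6.64 kb. The groups did not overlap for any of these genes. KRT7 passed under every alternative, whereas the number of members called ran from 1 to 6 across alternatives. SPINT1 lost its call without any list but day 1 replicate 1 (adjusted p from 0.0517 to 0.182). CDH1 and KRT8 lost theirs whichever list was left out, CDH1 with an adjusted p from 0.0792 to 0.139 and KRT8 from 0.0594 to 0.155, and with the replicate block, which takes same-numbered lists as pairs (0.0547 and 0.0581). KRT18 lost it without day 1 replicate 2 (0.0651), day 1 replicate 3 (0.0570) or day 10 replicate 1 (0.0503). With the 50000 peaks of highest area in each list, KRT8, KRT18, OVOL2, SPINT1 and CDH1 all missed the threshold (adjusted p from 0.0728 to 0.854).

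KRT7, KRT8 and KRT18 lie together with the type II keratins on chromosome 12 (chr12:52158996-52962906). Across this cluster the covered length was 71.0, 67.4 and 70.7 kb in controls, 77.3, 70.8 and 83.3 kb at day 1 and 59.2, 65.3 and 61.0 kb at day 10, with 11 regions lost and 1 gained. Of its 24 tested genes, 5 were lower and 2 higher, beside 3.24% and 2.13% of all genes, with a median log2 change of -0.09. Day 10 lay below both other groups in every list. KRT80, named after its values were seen, fell with KRT7 (log2 change -0.64, SE 0.106, adjusted p = 0.00197), from 13.5, 13.5 and 14.6 kb to 8.84, 8.88 and 8.52 kb. Against this direction, KRT6B and KRT75, neighbours whose 10 kb flanks overlap, rose by 0.88 and 1.06 on the log2 scale (adjusted p = 0.00248 and 0.00207), and neither had a peak in a control list. KRT6B is a keratin of stratified and wounded epithelium. Both calls ended with 2 kb on each side.

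The epidermal differentiation complex on chromosome 1, which also serves stratified epithelium, held 31.1, 30.2 and 33.2 kb at day 1 and 33.6, 33.9 and 36.6 kb at day 10, above a control mean of 25.3 kb. Of 25 tested genes, 10 had a log2 change above 0 and 13 below, with a median of -0.0068. Called higher were 4, IVL (involucrin), KPRP, LCE1F and S100A12, and called lower 1, beside 2.13% and 3.24% of all genes. LCE1F, a cornified envelope gene, had no peak in controls or at day 1 and 0.244, 0.671 and 0.618 kb at day 10 (adjusted p = 0.000776). S100A12, whose promoter is shown above, had 0.408, 0.571 and 0.471 kb at day 10 and none in the other lists (adjusted p = 6.60e-05). CRNN, cornulin, fell by 1.25 on the log2 scale (adjusted p = 0.00105), from 2.32, 2.22 and 2.13 kb to 0.410, 0.813 and 0.758 kb. KPRP lost its call without day 1 replicate 3 (adjusted p = 0.0654) or day 10 replicate 3 (0.0504).

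The mesenchymal list showed no shared direction, with a median log2 change of -0.01. Of 24 tested members, 3 were higher and none lower, beside 2.13% and 3.24% of all genes: ZEB1 and ZEB2, which repress epithelial genes, and FN1, fibronectin. In ZEB1 and FN1 all day 1 lists lay below all control and all day 10 lists, and limma called day 1 lower than controls for both (log2 differences -0.35 and -0.36, adjusted p = 0.0249 and 0.00346). ZEB1 (chr10:31318417-31529804) held 5.84, 5.24 and 5.12 kb in controls, 4.56, 3.68 and 4.21 kb at day 1 and 5.59, 5.28 and 5.79 kb at day 10 (log2 change 0.38, SE 0.106, adjusted p = 0.0445). FN1 (chr2:215360865-215436068) held 3.62, 3.45 and 3.13 kb, then 2.66, 2.52 and 2.41 kb, then 3.45, 3.50 and 3.10 kb (log2 change 0.35, SE 0.0793, adjusted p = 0.0165).

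These 3 calls did not hold under several alternatives. None of them passed without scaling, and none passed without day 1 replicate 2 (adjusted p = 0.180 for ZEB1, 0.187 for ZEB2 and 0.0530 for FN1), day 1 replicate 3, day 10 replicate 1 or day 10 replicate 2, while without day 10 replicate 3 FN1 alone did.

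**Figure D5:**
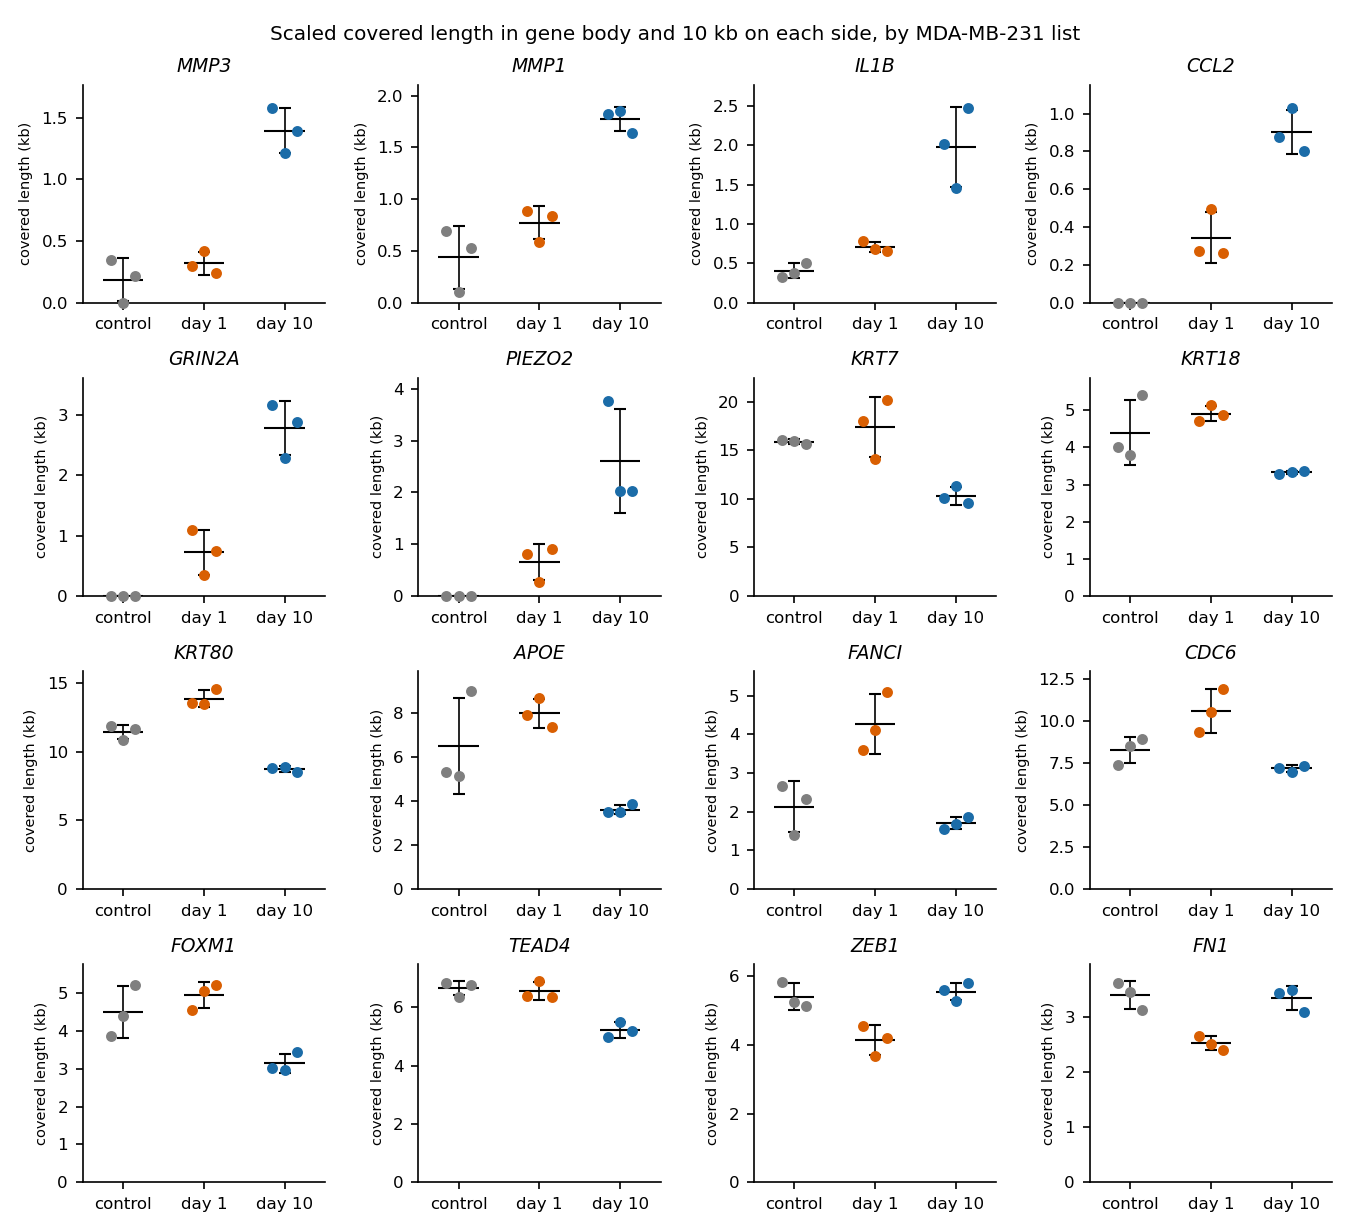
Scaled covered length in kb (vertical axes, from 0) for 16 genes, flanks of 10 kb included, in the 3 control, 3 day 1 and 3 day 10 lists of MDA-MB-231. Points are lists, horizontal lines are means and bars are 1 SD, and the day 10 lists of MMP3 lie between 1.21 and 1.58 kb, above every other list, while those of KRT7 lie between 9.57 and 11.4 kb, below every other list.

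Genes of the apolipoprotein cluster on chromosome 19 (chr19:44836297-44959565) lost open chromatin together with the APOE promoter. Its covered length was 23.9, 24.2 and 22.5 kb at day 1 and 17.4, 17.8 and 17.7 kb at day 10, with 4 regions lost and none gained. APOE went from 7.87, 8.66 and 7.37 kb to 3.48, 3.48 and 3.87 kb (log2 change -1.04, SE 0.149, adjusted p = 0.000681), against 5.32, 5.14 and 8.99 kb in controls. TOMM40, a mitochondrial import pore, APOC1 and NECTIN2, an adhesion receptor, were also lower, and share peaks with APOE or with each other. APOE passed under every alternative tried, TOMM40 and NECTIN2 missed the threshold with the 50000 peaks of highest area (adjusted p = 0.0539 and 1), and APOC1 lost its call without day 1 replicate 2 (adjusted p = 0.0752), day 1 replicate 3 (0.0563) or day 10 replicate 1 (0.0755).

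Genes of cell division and DNA repair moved little, and those that passed all fell. Of 24 tested mitosis and cytokinesis genes, 3 were lower: FOXM1, the transcription factor that drives mitotic genes, AURKB, the aurora B kinase, and RACGAP1, which acts in cytokinesis. Of all genes tested, 3.24% were lower. Of 23 G1/S and replication genes, 2 were lower, CDC6, which loads the replicative helicase, and GINS1, a part of that helicase. No gene of either list was higher, and the medians were -0.0035 and -0.0059. FOXM1 (chr12:2857680-2877174) held 4.55, 5.06 and 5.19 kb at day 1 and 3.02, 2.96 and 3.42 kb at day 10 (log2 change -0.58, SE 0.115, adjusted p = 0.00637), and shares peaks with its neighbour TEX52 (log2 change -1.44). CDC6 (chr17:40287879-40304657) held 7.38, 8.48 and 8.91 kb in controls, 9.33, 10.5 and 11.9 kb at day 1 and 7.21, 6.95 and 7.34 kb at day 10 (log2 change -0.53, SE 0.115, adjusted p = 0.0123).

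FOXM1 passed with each list left out in turn and CDC6 did so except without day 1 replicate 3 (adjusted p = 0.0798). AURKB and GINS1 lost their call whichever list was left out, and AURKB also with the replicate block (adjusted p = 0.0503), and RACGAP1 without day 1 replicate 2 (0.134), day 1 replicate 3 (0.0514) or day 10 replicate 1 (0.127). Neither FOXM1 nor CDC6 passed with equal numbers of peaks per list (adjusted p = 0.810 and 0.418).

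Repair of cisplatin crosslinks uses the Fanconi anaemia pathway and nucleotide excision repair. Of 23 tested crosslink and recombination repair genes, 1 was lower and none higher, beside 3.24% and 2.13% of all genes. This was FANCI, the partner of FANCD2 in the complex that is ubiquitinated at a crosslink (chr15:89243979-89317259), with 2.67, 1.40 and 2.32 kb in controls, 3.59, 4.11 and 5.1 kb at day 1 and 1.56, 1.69 and 1.88 kb at day 10 (log2 change -1.10, SE 0.146, adjusted p = 0.000405). FANCI lost 3 regions, yet with the 50000 peaks of highest area its log2 change was 0.19 (adjusted p = 0.713). ERCC2, a helicase of excision repair (chr19:45349837-45370573), was the single call among 21 genes of excision repair, mismatch repair and translesion synthesis, going from 9.69, 10.2 and 9.48 kb to 7.04, 6.96 and 5.71 kb (log2 change -0.54, SE 0.0926, adjusted p = 0.00223).

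Among 23 p53 target genes, GADD45A alone was higher (log2 change 0.43, SE 0.12, adjusted p = 0.0454), from 3.57, 3.03 and 2.85 kb to 4.24, 4.26 and 4.73 kb, where controls held 4.13, 4.26 and 3.79 kb. Its call was lost with the replicate block (adjusted p = 0.0600) and without every list but day 1 replicate 1. Of all genes tested, 2.13% were higher and 3.24% lower. CDKN1A, the p53 target that halts the cycle, had a log2 change of 0.19 (adjusted p = 0.249). Of 21 oxidative stress and glutathione genes, PRDX1 alone was called. This peroxiredoxin gene (chr1:45511051-45522890) went from 3.66, 4.15 and 4.37 kb to 2.21, 2.56 and 2.48 kb (log2 change -0.64, SE 0.110, adjusted p = 0.00227). Limma called none of 16 platinum, copper and drug transporter genes (2 at an unadjusted p under 0.05), 20 apoptosis and survival genes (2), 21 hypoxia genes (3) or 18 cholesterol and fatty acid synthesis genes (4). Of all 16816 genes tested, 3184 passed that unadjusted threshold. SLC7A5, the transporter beside the wide lost region, fell from 13.1, 11.9 and 12.9 kb to 7.43, 8.00 and 7.09 kb (log2 change -0.71, SE 0.109, adjusted p = 0.00109). ERCC2, PRDX1 and SLC7A5 missed the threshold with the 50000 peaks of highest area (adjusted p = 0.204, 0.0937 and 0.0659).

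Because the study concerns nuclear organization, genes of the nuclear lamina and envelope were counted. Of 16 tested, 1 was higher and 2 were lower, beside 2.13% and 3.24% of all genes. TMPO, which encodes the lamin-binding LAP2 proteins (chr12:98515573-98550351), was higher, with 2.54, 2.26 and 2.06 kb in controls, 1.52, 1.06 and 0.892 kb at day 1 and 2.03, 1.80 and 1.97 kb at day 10 (log2 change 0.57, SE 0.123, adjusted p = 0.0110). SUN2 and SYNE1, which join the envelope to the cytoskeleton, were lower (log2 changes -0.42 and -0.52, adjusted p = 0.0449 and 0.0306), and the SUN2 groups overlapped. TMPO lost its call without day 1 replicate 2 (0.0501) or day 1 replicate 3 (0.0738), and SUN2 and SYNE1 with median-of-ratios scaling (0.0645 and 0.0545). SUN2 also lost it without day 1 replicate 1 or 3 or day 10 replicate 2 or 3 (0.0990 to 0.218), and SYNE1 without any list but day 10 replicate 3 (0.0534 to 0.124). Of 27 chromatin modifier genes, limma called none, with 3 at an unadjusted p under 0.05.

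The remaining lists held at most 1 call each, beside 2.13% of all genes called higher and 3.24% called lower. MX2, an antiviral GTPase, was higher among 20 interferon and nucleic acid sensing genes (log2 change 0.51, adjusted p = 0.0362). TEAD4, a transcription factor of the YAP pathway, was lower among 17 genes of that pathway, going from 6.38, 6.89 and 6.36 kb to 4.98, 5.51 and 5.17 kb (log2 change -0.30, SE 0.0698, adjusted p = 0.0174). LAMP1, a lysosomal membrane protein, was lower among 18 lysosome and autophagy genes (log2 change -0.55, adjusted p = 0.0458, and 0.0528 with the replicate block), HES1, a Notch target, among 15 stemness-associated genes (-0.22, adjusted p = 0.0407), and GATA3 among 14 luminal and hormone receptor genes (-0.48, adjusted p = 0.0165). With the 50000 peaks of highest area in each list, none of MX2, TEAD4, LAMP1, HES1 and GATA3 passed, and none passed without day 1 replicate 2 or day 10 replicate 3. Among 17 housekeeping genes limma called none, with 1 at an unadjusted p under 0.05.

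Along the chromosomes, 132 of 2599 windows of 1 Mb (5.08%) were higher and 39 (1.50%) lower by the same test on log2(length + 5 kb). Of the higher windows, 45 (34.1%) were gene-poor, against 20.3% of all windows tested. The window holding PRKD1 (chr14:29000001-30000000) went from 0.502, 0.258 and 0.642 kb to 3.36, 2.71 and 2.84 kb (adjusted p = 4.9e-05), with no peak in controls. A window had to reach 5 kb in 3 lists, so this one entered the test through PC3 lists. Its MDA-MB-231 values all lie below the added 5 kb. The window of CCL2 and neighbouring chemokine genes (chr17:34000001-35000000) went from 10.4, 8.21 and 9.56 kb to 14.4, 12.2 and 14.0 kb (adjusted p = 0.0132).

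Among lower windows, one with LAMP1, F7 and C13orf46 (chr13:113000001-114000000) went from 71.8, 64.4 and 72.1 kb to 55.6, 55.3 and 55.0 kb (adjusted p = 0.00266), where controls held 71.1 to 75.9 kb. The keratin window (chr12:52000001-53000000) went from 110.9, 103.9 and 119.0 kb to 90.1, 97.5 and 90.3 kb (adjusted p = 0.0210). Without scaling, 12 windows were higher and 17 lower. Without day 1 replicate 2 there were 41 and 20, without day 1 replicate 3 there were 47 and 13, without day 10 replicate 1 there were 74 and 19, and 71 were higher without day 10 replicate 3 and 25 lower without day 10 replicate 2.

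The same contrast in PC3 shows which changes the lines shared, with no list in common. In PC3, 369 genes (2.19%) were higher and 925 (5.50%) lower at day 10. Of the MDA-MB-231 calls, 39 higher genes were also higher in PC3 (10.9% of the MDA-MB-231 list and 10.6% of the PC3 list), 42 lower genes were lower in both (7.71% and 4.54%) and 17 went opposite ways. The change differed between the lines for 751 genes (4.47%) by the interaction test in limma, 477 more positive and 274 more negative in MDA-MB-231.

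CCL2 was higher in both lines, with a log2 change of 0.74 in MDA-MB-231 and 1.76 in PC3, and the difference passed the interaction test (adjusted p = 0.00297). GRIN2A (1.46 and 1.26) and GATA3, a luminal transcription factor (-0.48 in each), had the same sign and passed in both lines. MMP3 had log2 changes of 1.21 and 0.14 (interaction adjusted p = 0.00950), KRT7 -0.72 and 0.09 (0.00543) and FANCI -1.10 and 0.10 (0.00369). Of the regions gained in MDA-MB-231, PC3 day 10 lists held 56.4% ± 5.67 (SD, n = 3), day 1 lists 43.4% ± 9.57 and control lists 30.5% ± 3.27 (exact permutation p = 0.2 for day 10 against day 1). Of the lost regions they held 33.4% ± 0.806, 31.9% ± 3.46 and 17.7% ± 0.908 (exact permutation p = 0.7). Of all MDA-MB-231 regions they held 61.1% ± 3.12, 60.3% ± 5.09 and 51.0% ± 1.71. Interaction counts depend on the scaling, with 97 and 172 genes without it and 305 and 441 with median-of-ratios scaling. They were lowest without day 1 replicate 3, at 150 and 111, and the more positive count was 272 without day 1 replicate 2 and 240, 238 and 294 without day 10 replicates 1, 2 and 3, the more negative 166 without day 10 replicate 2.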

How the data were processed

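ATAC-seq was done on MDA-MB-231 and PC3 cells in 6 groups of 9 samples, each group being 3 biological replicates that were divided into 3 experimental replicates. Per the submitters' processing notes, the tools included FastQC 0.12.1, Bowtie2 2.3.5.1, Picard, SAMtools 1.6, Genrich 0.6.2 and R 4.4.1, with hg38 (GRCh38). The deposited files are 18 peak lists, 1 per biological replicate; the way in which experimental replicates entered a list is not given in the sources. Each deposited peak has a position, a score in column 7, read here as the peak's area which served to rank the peaks of 1 list and for nothing else (lowest value 200), and a −log10 p-value in column 8 of the authors' lists (lowest 2.52). No read counts were used, so the depth of each list and its counting error are unknown, and no interval could be given.

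From the lists, merged regions (1 bp overlap), bases under peaks in each gene with flanks of 10 kb for 19974 protein-coding RefSeq genes, in windows of 1 Mb and in 15812 RefSeq promoters (GRCh38.p14) were computed. A gene end is within 1 kb of either end of a gene. Of 2878 windows with a peak, 731 were gene-poor. Lengths were scaled to equal totals per list. Genes reaching 500 bp in 3 or more lists entered limma 3.58.1 in R 4.3.3 (all 18 lists, 6 groups, pseudocount 500 bp, windows 5 kb, Benjamini-Hochberg threshold 0.05). Python 3.11.15 with pandas 2.3.3, numpy 2.4.6 and matplotlib 3.10.9 did the rest. Shares per list were set against each other with exact permutation tests, two-sided. The fit was tested on simulated data.

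The members and the 26 gene lists (549 entries) were chosen with earlier results of these data known. Genes named by rule were the 12 largest rises and 12 largest falls among called genes whose groups did not overlap, the 3 of smallest p in each list, and genes at the 10 widest gained and lost regions at gene ends; the 6 widest gained and lost regions were named too, and 1 gene that the rule names is not reported here. Clusters, promoters and their genes were chosen after their values were seen. Same-numbered lists deviated together (correlations 0.419, 0.310 and 0.197 for numbers 1, 2 and 3, from the data and not the labels), so the numbers were taken to pair them in an alternative. Alternatives covered scaling, peak number, pseudocount, filter, flank, the lists in the fit, the replicate block and leaving out each list.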

Additional observations from a re-analysis of the deposited data

Results flagged for a closer look

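Among 126 named genes, the day 10 minus day 1 log2 change differed between MDA-MB-231 and PC3 for 25 by the interaction test in limma (adjusted p from 0.000177 to 0.0464). The values that follow are the MDA-MB-231 change minus the PC3 change. The difference was positive for 13 genes. It was 1.62 for ZMAT4, 1.52 for PRKD1, 1.49 for PIEZO2, 1.16 for AMMECR1L, 1.08 for MMP3 and 0.96 for TMPO. For FLT1 it was 0.89, for FFAR2 0.82, for GPX4 0.68, for KDM6A 0.66, for ZEB1 0.57, for GRIK2 0.57 and for BBC3 0.50. The first 8 of these and ZEB1 and GRIK2 were also higher at day 10 within MDA-MB-231, whereas GPX4, KDM6A and BBC3 had no call there.

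The difference was negative for 12 genes. SLC7A5 differed by -0.70, KRT18 by -0.72, PRDX1 by -0.75, KRT7 by -0.81, FANCI by -1.20, TEX52 by -1.21 and RASA4B by -1.55. BGN differed by -1.71, and MMP23B by -1.60, C13orf46 by -1.87 and THRSP by -2.65, the last 3 being genes with no peak in any day 10 list of MDA-MB-231, so that their size depends on the pseudocount. CCL2 differed by -1.02 and was called higher in both lines, by more in PC3. No explanation of these differences was tested.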

How the results depend on the processing

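All counts are given as higher then lower, or gained then lost. Without scaling, 155 and 822 genes, 12 and 17 windows, and 97 and 172 genes with a more positive or more negative change in MDA-MB-231 than in PC3 were called. Median-of-ratios scaling gave 305 and 441 of the last kind. With the 50000 peaks of highest area in each list, 228 and 326 genes, 33 and 14 windows and 1672 and 1644 regions passed. The upper 50% of peaks gave 175 and 281 genes, 1215 and 1585 regions and 30 lost promoters. With the replicate block, 410 genes were higher and 546 lower. Of 65 named genes called, 61 kept their call under it and 4 lost it (GADD45A, AURKB, LAMP1 and MMP21), and 2 without one gained it. The cause of these moves was not tested.

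Leaving out each list in turn gave 185 to 396 and 223 to 424 genes, 150 to 470 and 111 to 244 genes differing between the lines, 41 to 138 and 13 to 36 windows, 3552 to 6691 and 3913 to 8000 regions, and 12 to 33 and 57 to 83 promoters. Day 10 minus day 1 then ran from -9741 to 6740 peaks, -11.6 to -5.28 Mb covered, -105 to -19.2 bp median width, -0.840 to 0.124 points at gene ends, -1.62 to -1.22 points in gene bodies, 1.38 to 2.07 points between genes and 0.202 to 0.627 points in gene-poor windows. Directions reversed for FANCI (0.19) and GRIK2 (-0.089) with the 50000 peaks of highest area, for GRIK2 (-0.072) and HES1 (0.0099) with the upper 50% of peaks, and for IL1B (-0.057), RACGAP1 (0.087) and TMEM120A (0.42) with 2 kb on each side; the cause was not tested. Of the named genes, 10 were called in every alternative: C13orf46, DNASE1L2, FFAR2, FLT1, H2BK1, KRT7, NELFA, PIEZO2, RRP7A and TEX52, each counted where it was tested, and 31 without each list in turn. The alternatives for promoters, and those of the lists and clusters, were chosen after seeing the data. Depth is unknown, so a site with no peak may lie below what a list could show.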

Other observations

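The HOX genes, which set position along the body axis, had the most negative median of the 26 lists after scaling to equal totals, at -0.17 with 5 of 23 tested members above 0. Of them, 1 was lower (HOXC8, log2 change -0.35, adjusted p = 0.0291) and none higher, beside 3.24% and 2.13% of all genes. At an unadjusted p under 0.05, 6 were lower, beside 3184 of all 16816 genes in either direction. Their summed length ran from 36.3 to 38.6 kb at day 1, 29.2 to 34.4 kb at day 10 and 38.4 to 42.9 kb in controls. HOXC8 lost its call without day 1 replicate 1 or 3 or day 10 replicate 2 or 3 (adjusted p from 0.0526 to 0.152). Without scaling the median was -0.18 beside -0.13 over all genes, and the epithelial, YAP pathway and transporter lists lay lower, at -0.22, -0.22 and -0.19.

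AP-1 and immediate early genes, which respond to stress and growth signals, had 17 of 22 tested members above 0 and a median of 0.11, beside 0.0037 over all genes. Without scaling the median was -0.05, beside -0.13 over all genes. Limma called none of the 22, and 5 were higher at an unadjusted p under 0.05, beside 3184 of all 16816 genes in either direction. KLF6 had a log2 change of 0.40 (adjusted p = 0.0673) and JUN 0.28 (adjusted p = 0.235). The summed length of the list ran from 153 to 166 kb at day 1, 169 to 183 kb at day 10 and 178 to 200.5 kb in controls.

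Calls per chromosome are set beside 2.13% higher and 3.24% lower over all genes, for chromosomes picked after their values were seen. Chromosome 22 had 1 higher (0.251%) and 16 lower (4.01%) of 399 genes tested. Chromosome 17 had 7 (0.737%) and 42 (4.42%) of 950, and chromosome 7 had 13 (1.62%) and 47 (5.85%) of 803. Chromosome 18 had 6 higher (2.60%) and none lower of 231, and chromosome 21 had 8 (4.88%) and 1 (0.610%) of 164. Some of these shares lie near those over all genes, and neighbouring genes share peaks. Regions followed the same order on chromosome 22, with 25 gained and 61 lost, and on chromosome 18, with 59 gained and 29 lost. Differences between chromosomes were not tested.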
